A study of Mus musculus with 60 samples.

Results

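The comparison described here is that of a high-fat diet (HFD) with chow in the subcutaneous white adipose tissue (scWAT) of sedentary mice, taken by the animal codes in the column names, SH for HFD and SC for chow. It rests on 10 of the 60 bulk libraries of the series, with 5 HFD mice and 5 chow mice. All were C57BL/6JN mice with no stated genetic change, 6 weeks old when the diets began and 12 weeks old at collection. The HFD drew 60% of its energy from fat and the chow 10%, each fed for 6 weeks, and no sex is given in the sources used here. The wider study also holds HFD and chow mice that ran on a wheel over the last 3 weeks, and visceral fat (vWAT) and triceps muscle of the same 20 animals. Every mouse was fasted for 6 hours before collection, and wheels were locked for the last 24 hours. RNA came from whole tissue, so for every result here, fewer cells of a type and less RNA per cell cannot be told apart.

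White fat stores energy as triglyceride in adipocytes. On a diet rich in carbohydrate these cells also make fatty acids and sterols anew. Glucose and fructose are broken down to pyruvate, pyruvate enters mitochondria, and citrate carries the carbon back to the cytosol for lipid synthesis with reducing power from NADPH. Fat depots expand by enlarging adipocytes and adding new ones, which takes place within a matrix of collagens and glycoproteins laid down by stromal cells. Obese fat is also known for gaining macrophages and for releasing acute-phase proteins and chemokines.

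The libraries held 618339 to 706976 estimated counts in HFD mice and 505336 to 720220 in chow mice. Reads of lymph node were unequal between the diets. Summed over Ccl21a and Ccl19, chemokines of lymph node stroma, and Cxcl13, the chemokine of B cell follicles, they numbered 3 to 19 in the 5 HFD libraries and 438, 703 and 1108 in chow replicates 5, 4 and 2, but 9 and 4 in chow replicates 1 and 3. The whole list of T and NK cell markers gave 18 to 76 reads in HFD libraries, 373 to 1132 in those 3 chow libraries and 24 and 30 in the other 2. The list of B cell and plasma cell markers, with most counts in Ighm and Ighd, did not set HFD libraries apart in this way. It gave 332 to 1152 reads in HFD libraries, 508 to 1094 in those 3 chow libraries and 152 and 50 in the other 2. Reads of adipocyte markers ran the other way among chow mice, with 36638 to 86971 in HFD libraries, 24951 to 37482 in the 3 chow libraries with lymph node reads, and 53376 and 55499 in the other 2. Calls below are therefore given with all 5 chow mice and, for most genes, again without the lymph node libraries, which leaves chow replicates 1 and 3. That second fit also leaves out 3 chow libraries of trained mice. Skeletal muscle markers took 0.0520% to 8.0% of counts in HFD libraries and 0.0261% to 3.16% in chow libraries. Keratin and other epithelial markers had 108 reads in HFD replicate 1, against 3 to 14 in the other 9 libraries.

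Of 7069 genes tested with edgeR's quasi-likelihood test, 449 passed an adjusted p of 0.05 (6.35%), with 251 higher in HFD mice (3.55%) and 198 lower (2.8%). At an unadjusted p below 0.05 there were 1490 genes. Values in single mice are given as CPM, the counts scaled to the total of the library, always in the order of replicates 1 to 5. Fold changes are log2 values of HFD over chow, with their standard error after the ± sign. Of 26 tested enzymes of fatty acid and triglyceride synthesis 17 fell, and 8 of 8 genes of a list of fat expansion, Lep and Mest among them, rose; that list was drawn up with these results known. The genes below lie mostly outside those 2 sets.

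Genes that carry sugar carbon towards lipid were lower in HFD mice. Slc2a5, the fructose transporter of the cell membrane (chromosome 4, 150119283 to 150144169, + strand, mm10), had 0 counts in each of the 5 HFD mice, against 20.1, 5.94, 43, 38.2 and 6.7 CPM in chow mice. Set against a floor of 3 counts over the HFD group, Slc2a5 was at least 26.6-fold lower in HFD mice (adjusted p = 0.00183), and the call held without the lymph node libraries (adjusted p = 0.000262). The level on chow varied between mice, since replicates 2 and 5 were near the value that 3 counts give in a library, 4.17 to 5.94 CPM, and replicates 3 and 4 were well above it. Tkt, the transketolase of the pentose phosphate pathway (chromosome 14, 30548359 to 30574720, + strand), had 264, 232, 309, 175 and 226 CPM in HFD mice and 811, 602, 1529, 1273 and 566 CPM in chow mice. No HFD mouse reached the lowest chow mouse, and the log2 fold change was −2.22 ± 0.31 (adjusted p = 0.000105) and −2.57 without the lymph node libraries (adjusted p = 4.77e-05). Me1, the cytosolic malic enzyme that yields NADPH, averaged 185 ± 24.4 CPM in HFD mice and 683 ± 483 CPM in chow mice (SD, n = 5 each), a log2 fold change of −2.13 ± 0.43 (adjusted p = 0.00555). Its chow values spread widely, with 1511 CPM in replicate 3 and 163 to 212 CPM in HFD mice and 330.1 to 1511 CPM in chow mice, and without the lymph node libraries it had −2.81 (adjusted p = 0.00200). These were the 2 of 9 tested NADPH and pentose phosphate genes that passed, with a list median of −0.27 against −0.05 over all genes tested. Me1 is also among the 17 enzymes of fatty acid and triglyceride synthesis that fell, as is Pcx, described below. Without the lymph node libraries 4 of the 9 passed, each lower, at a median of −0.73.

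Pyruvate genes fell together. Of 26 tested genes of glycolysis, lactate and pyruvate handling, 7 fell and 0 rose, 23 lay below 0 and the median was −0.57. Pdk1, a kinase that switches pyruvate dehydrogenase off (chromosome 2, 71873224 to 71903858, + strand), had 10.3, 25.5, 9.5, 9.7 and 9.36 CPM in HFD mice and 40.2, 55.4, 47.2, 62.7 and 43.6 CPM in chow mice. HFD replicate 2 stood above the other 4 HFD mice, yet the diets did not overlap, and the fold change of −2.11 ± 0.26 (adjusted p = 1.25e-05) was the strongest fall in the list. Mpc1, a subunit of the carrier that brings pyruvate into mitochondria, had 1720, 1461, 1291, 1135 and 1277 CPM in HFD mice and 2642, 1906, 4907, 3579 and 1866 CPM in chow mice, with a log2 fold change of −1.34 ± 0.28 (adjusted p = 0.00418). The highest HFD mouse lay below the lowest chow mouse. Mpc2, the partner subunit, missed the threshold with all mice (−0.72, adjusted p = 0.0588) and passed without the lymph node libraries (−1.03, adjusted p = 0.00974).

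Inside mitochondria, pyruvate is turned into acetyl-CoA by pyruvate dehydrogenase or into oxaloacetate by pyruvate carboxylase. Genes of both routes were lower in HFD mice. Pcx, pyruvate carboxylase, had 138, 188, 162, 104 and 195 CPM in HFD mice and 319.7, 232, 482, 231 and 243 CPM in chow mice (log2 fold change −1.17 ± 0.27, adjusted p = 0.0111). The pyruvate dehydrogenase genes had log2 fold changes of −1.09 (adjusted p = 0.011) for the E2 subunit Dlat, −1.07 (adjusted p = 0.0145) for the E1 subunit Pdhb and −0.84 (adjusted p = 0.0402) for its partner Pdha1. Pdha1 was the least secure. Its ranges overlapped, 293 to 412 CPM in HFD mice and 347 to 829 CPM in chow mice, and its call was lost without any of HFD replicates 1, 2, 3, 4 or 5 or chow replicates 3 or 4 (adjusted p up to 0.129). Pdhb lost its call without HFD replicate 5 (adjusted p up to 0.0501), and Dlat without chow replicate 4 (adjusted p up to 0.0505). The seventh gene, the glycolytic enolase Eno1 (−0.88, adjusted p = 0.0273), lost its call without HFD replicates 1, 2 or 4 or chow replicates 3 or 4 (adjusted p up to 0.128). Without the lymph node libraries 6 of the 7 calls held, Eno1 being the exception at adjusted p = 0.0776, and the list median was −0.66. Gpd2, the mitochondrial glycerol-3-phosphate dehydrogenase, is not on that list and also fell. It averaged 53.3 ± 12.2 CPM in HFD mice and 187 ± 80.7 CPM in chow mice (SD, n = 5 each), a log2 fold change of −2.01 ± 0.38 (adjusted p = 0.00334). It missed the threshold without those libraries (adjusted p = 0.0534).

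Of 14 tested genes of cholesterol synthesis and its control, 3 fell and 0 rose. In all 10 lay below 0 and 4 above, with a median of −0.75. Insig1 encodes the endoplasmic reticulum protein that holds back SREBP activation and is itself an SREBP target. It had 45.4, 48.1, 33.3, 29.1 and 70.2 CPM in HFD mice and 137, 73.2, 254, 113 and 101 CPM in chow mice, with no overlap (log2 fold change −1.83 ± 0.35, adjusted p = 0.00306). Acat2, the cytosolic thiolase that makes acetoacetyl-CoA, had 65.9, 82, 71.3, 38.8 and 71.7 CPM in HFD mice and 131, 93, 268, 154 and 83.8 CPM in chow mice (−1.39, adjusted p = 0.0119). Pmvk, phosphomevalonate kinase, fell less and its groups overlapped (−0.86, adjusted p = 0.0285), and its call was lost without HFD replicates 2, 3 or 5 or chow replicates 3 or 4 (adjusted p up to 0.0951). All 3 held without the lymph node libraries, where Insig1 reached −2.41 (adjusted p = 0.000262), Fdps, farnesyl diphosphate synthase, was added (−1.69, adjusted p = 0.00914) and the list median was −1.14. Within the chow group, replicate 3 was the highest mouse for Slc2a5, Tkt, Me1, Mpc1, Pcx, Insig1 and Acat2, as the plot of sugar, pyruvate and sterol genes by mouse shows. That mouse is 1 of the 2 chow mice in the fit without the lymph node libraries. How far the larger folds of Tkt, Me1 and Insig1 in that fit depend on this mouse was not tested.

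**Figure D1:**
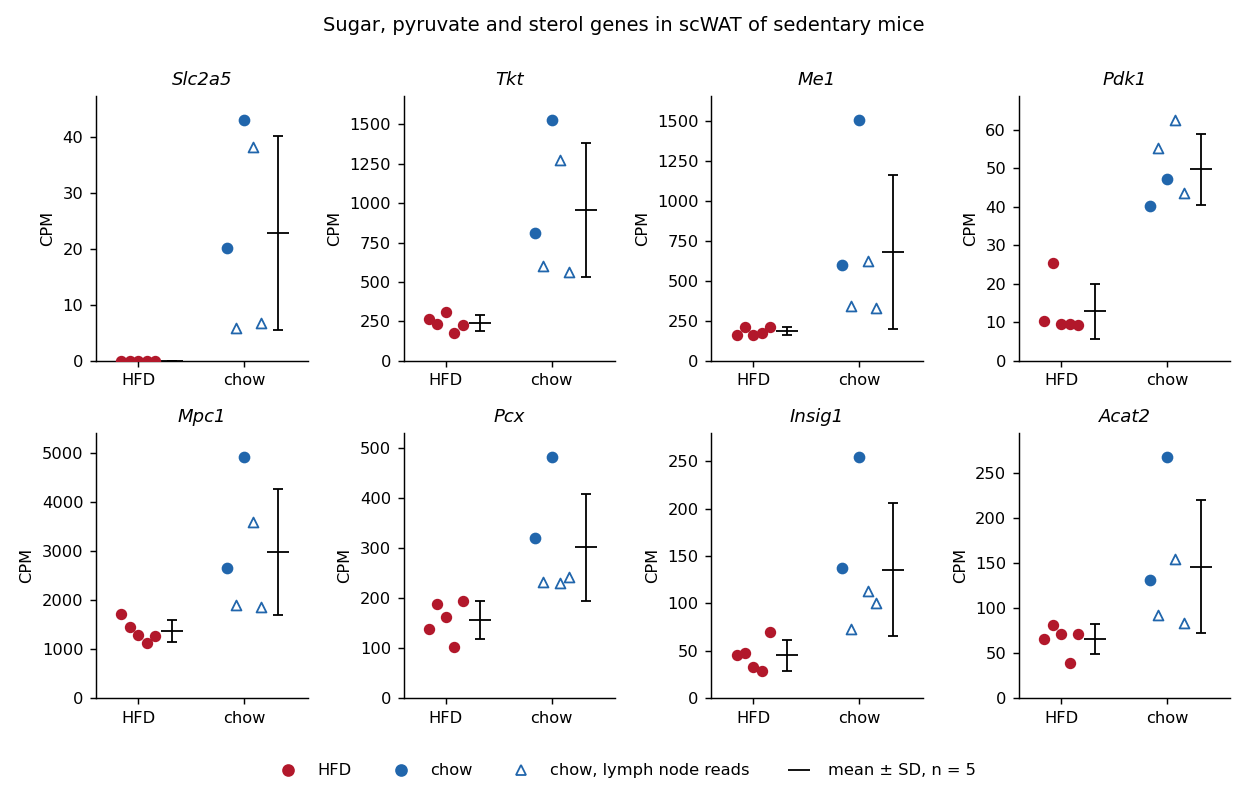
CPM of 8 genes in scWAT of sedentary mice on HFD (left) and chow (right), 1 point per mouse, with the mean and SD of each group as a bar. Triangles mark the 3 chow mice with lymph node reads. HFD mice lay below every chow mouse for each of the 8 genes, and chow replicate 3 was the highest chow mouse for all of them but Pdk1.

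Promoter sequences of 4 of these genes are shown because the genes fell together and many lipogenic genes are known targets of SREBP and ChREBP, which work with NF-Y, a factor that reads CCAAT, and bind E-boxes of which CACGTG is a palindromic form. They are from RefSeq on GRCm38.p6 and run from 250 bases before to 50 bases after the listed start, 5′ to 3′ on the gene's strand, in lower case. Capitals mark CACGTG and CCAAT, the second on either strand, where it reads ATTGG on the printed strand. Insig1 lies at chr5:28071162-28071461, Pcx at chr19:4510222-4510521, Mpc1 at chr17:8283537-8283836 and Slc2a5 at chr4:150119094-150119393, all on the + strand; for Pcx and Mpc1 the first of 2 listed starts was taken.
Insig1: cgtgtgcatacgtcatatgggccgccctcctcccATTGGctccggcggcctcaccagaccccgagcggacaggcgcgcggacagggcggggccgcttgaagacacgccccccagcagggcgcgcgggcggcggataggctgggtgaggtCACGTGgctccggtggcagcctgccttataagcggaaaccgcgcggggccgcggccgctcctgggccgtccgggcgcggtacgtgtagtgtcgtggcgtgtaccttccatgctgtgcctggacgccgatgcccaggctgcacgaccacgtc
Pcx: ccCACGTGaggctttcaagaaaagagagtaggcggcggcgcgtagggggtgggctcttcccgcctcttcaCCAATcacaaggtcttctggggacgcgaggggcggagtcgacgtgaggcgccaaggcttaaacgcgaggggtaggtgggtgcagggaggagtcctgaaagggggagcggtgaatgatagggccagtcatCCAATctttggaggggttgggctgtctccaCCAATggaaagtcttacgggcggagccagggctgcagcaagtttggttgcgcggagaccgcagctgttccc
Mpc1: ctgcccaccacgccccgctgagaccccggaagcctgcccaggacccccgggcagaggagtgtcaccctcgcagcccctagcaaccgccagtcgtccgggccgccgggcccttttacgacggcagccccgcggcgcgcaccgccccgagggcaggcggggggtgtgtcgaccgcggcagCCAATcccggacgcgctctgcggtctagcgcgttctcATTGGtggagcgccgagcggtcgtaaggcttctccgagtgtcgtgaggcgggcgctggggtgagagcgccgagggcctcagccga
Slc2a5: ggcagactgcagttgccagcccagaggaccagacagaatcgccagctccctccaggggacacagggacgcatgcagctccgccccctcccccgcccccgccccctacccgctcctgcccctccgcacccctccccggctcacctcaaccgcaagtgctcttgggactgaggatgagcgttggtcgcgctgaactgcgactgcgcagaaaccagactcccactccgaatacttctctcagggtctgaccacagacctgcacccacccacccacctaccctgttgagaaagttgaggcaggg
The Insig1 window held 1 CACGTG and 1 CCAAT, that of Pcx held 1 CACGTG and 3 CCAAT, that of Mpc1 held 2 CCAAT and that of Slc2a5 held neither. Of 27 genes that fell in the lists of pyruvate, NADPH, fatty acid and sterol genes, 23 matched the table by symbol. Among these, 12 of 23 windows held CCAAT (52.2%) and 3 held CACGTG (13%). Over all 27025 promoters of the table, 10248 held CCAAT (37.9%) and 1957 held CACGTG (7.24%). Among the 5521 tested genes with a window, the shares were 38.6% and 10.6%. These matches are a description of the letters in the window.

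Further genes were among those with the lowest adjusted p in the downward direction, several of them metabolic enzymes. Ptges, which makes prostaglandin E2, had 17.6, 22.6, 11.1, 19.4 and 17.2 CPM in HFD mice and 66.4, 51.5, 101, 59.6 and 38.5 CPM in chow mice. The groups were well apart (log2 fold change −2.05 ± 0.27, adjusted p = 3.34e-05), and more so without the lymph node libraries (−2.52, adjusted p = 2.87e-05). Sorl1, a sorting receptor of the endosome, had 22, 14.1, 11.1, 29.1 and 12.5 CPM in HFD mice and 44.8, 89, 112, 96.3 and 58.6 CPM in chow mice (−2.35, adjusted p = 4.18e-05), and held without those libraries (−2.43, adjusted p = 0.00237). Nat8l, which makes N-acetylaspartate from acetyl-CoA, averaged 9.2 ± 1.87 CPM in HFD mice and 32.7 ± 10.5 CPM in chow mice (−2.02, adjusted p = 0.00251; SD, n = 5 each). Coasy, coenzyme A synthase, averaged 16.3 ± 4.99 CPM in HFD mice and 35.4 ± 4.25 CPM in chow mice (−1.30, adjusted p = 0.000998; SD, n = 5 each). Both kept their calls without the lymph node libraries, at adjusted p = 0.00686 and 0.0479. Parm1 also fell to 19, 8.49, 6.33, 14.6 and 6.24 CPM in HFD mice, against 55.6, 45.5, 118, 71.9 and 45.2 CPM in chow mice, and held without those libraries (−3.25, adjusted p = 0.000262). The remaining named falls were Ddhd2, a phospholipase (−1.34, adjusted p = 0.000724), Mcrip2 (−1.61, adjusted p = 0.00144), Gucd1 (−1.36, adjusted p = 0.00266) and Rassf2 (−2.20, adjusted p = 0.0019). Without the lymph node libraries Mcrip2 held (adjusted p = 0.0166), and Ddhd2 and Gucd1 missed the threshold (0.0553 and 0.0705). Rassf2 was too low to be tested there. It had 7.33, 5.66, 3.17, 6.47 and 9.36 CPM in HFD mice and 9.27, 59.4, 18.1, 26 and 25.1 CPM in chow mice, with overlap, and the 3 chow libraries with lymph node reads were its highest. H2-Q10, an MHC class I gene known for its expression in liver, had 32.2, 42.4, 58.6, 16.2 and 14 CPM in HFD mice and 139, 98.9, 211, 127 and 146 CPM in chow mice (−2.35, adjusted p = 0.000117). The summed reads of liver genes were 25 to 734 in HFD libraries and 63 to 640 in chow libraries. They stepped with the library codes in the column names, with 481 to 734 in the 9 scWAT libraries of lowest code and 25 to 202 in the other 11. With a split placed at that step as a factor, called the split by code below, and no lymph node libraries, H2-Q10 was still called (adjusted p = 0.00514).

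Mitochondrial genes were lower in HFD mice in several compartments of the organelle. Reads of the mitochondrial genome took 8.33% to 14.6% of all counts in HFD libraries and 15.5% to 21.5% in chow libraries, with no overlap; the 2 chow libraries without lymph node reads had 17.0% and 20.6%. Of 13 protein genes of that genome, 9 fell, all 13 lay below 0 and the median was −0.96. mt-Atp6, a subunit of the ATP synthase, had 16588, 13875, 13667, 14476 and 10892 CPM in HFD mice and 25904, 24237, 36646, 26194 and 25886 CPM in chow mice (log2 fold change −1.19 ± 0.21, adjusted p = 0.00116). mt-Co2 and mt-Co3, of cytochrome c oxidase, changed by −1.10 (adjusted p = 0.00146) and −1.10 (adjusted p = 0.00282). These 3 also passed without the lymph node libraries, where 6 of the 13 passed, 5 of them among the 9, at a median of −0.95.

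Nuclear genes of the respiratory chain followed. Of 37 tested complex I genes 9 fell and 0 rose, with all 37 below 0 and a median of −0.46. Of 42 genes of complexes II to V, 11 fell and 0 rose, with 40 below 0 and a median of −0.54. Ndufa1, of complex I, had 917, 810.5, 888, 810.2 and 824 CPM in HFD mice and 1217, 1270.4, 1544, 1371 and 1411 CPM in chow mice, with no overlap (−0.87, adjusted p = 0.00166). Uqcr10, of complex III, had 690.1, 611, 722, 674 and 719 CPM in HFD mice and 840.2, 902, 1157, 1209 and 1010.3 CPM in chow mice (−0.78, adjusted p = 0.00702). Both passed in every fit that left out 1 mouse and without the lymph node libraries (adjusted p = 0.00636 and 0.0365). For these 2 lists the direction stood without those libraries while the calls thinned: 1 of the 9 and 4 of the 11 held, at medians of −0.54 and −0.58. The scale matters here as well. Scaled to total counts, which shifts the median of all genes up by 0.19, 4 complex I genes and 7 of complexes II to V were called lower, at medians of −0.28 and −0.35 against 0.14 for all genes.

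The tricarboxylic acid cycle and fatty acid oxidation gave smaller counts. In the cycle 4 of 19 genes fell and all 19 lay below 0, with a median of −0.53. Among them were Dlst (−0.66, adjusted p = 0.0151), Idh3b (−0.80, adjusted p = 0.0262) and Sucla2 (−0.79, adjusted p = 0.0262), none of which passed without the lymph node libraries. Dlst lost its call without HFD replicates 2 or 5 or chow replicate 4 (adjusted p up to 0.0748), Idh3b without HFD replicates 1, 2 or 5 or chow replicate 4 (adjusted p up to 0.11) and Sucla2 without HFD replicates 2, 3 or 5 or chow replicate 4 (adjusted p up to 0.0971). In mitochondrial fatty acid oxidation 5 of 22 genes fell, 21 lay below 0 and the median was −0.49. Cpt2, which hands long-chain fatty acids to the matrix, had 74.7, 60.8, 63.3, 55 and 74.9 CPM in HFD mice and 94.2, 101, 115, 115 and 127 CPM in chow mice (−0.94, adjusted p = 0.00334). Hadha, of the trifunctional protein, changed by −0.99 (adjusted p = 0.00835). Both held without the lymph node libraries, at adjusted p = 0.0481 and 0.0466, while Acadvl (−1.03, adjusted p = 0.0100), Acadl (−0.78, adjusted p = 0.0117) and Hadhb (−0.96, adjusted p = 0.0272) did not. Hadhb lost its call without HFD replicates 2, 3, 4 or 5 or chow replicates 3 or 4 (adjusted p up to 0.0882). Hspe1, the mitochondrial chaperonin cofactor, fell to 208, 215, 212, 246 and 192 CPM in HFD mice, against 276, 285, 393, 299.6 and 289.9 CPM in chow mice (−0.71, adjusted p = 0.00819), and held (adjusted p = 0.014).

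Heat-producing genes of beige fat spread widely among chow mice. Ucp1, the uncoupling protein, had 13.2, 7.07, 4.75, 8.09 and 4.68 CPM in HFD mice and 24.7, 235, 100, 604 and 126 CPM in chow mice. The groups did not overlap, but chow replicate 4 was far above and chow replicate 1 far below the other 3 chow mice. The test missed the threshold (log2 fold change −4.99 ± 1.55, adjusted p = 0.0652), also without the lymph node libraries (−3.31, adjusted p = 0.444). Cidea, a lipid droplet protein of heat-producing fat, had 93.8, 12.7, 77.6, 22.6 and 37.4 CPM in HFD mice and 184, 459, 504, 879 and 581 CPM in chow mice (−3.61, adjusted p = 0.00619). Elovl3, which elongates fatty acids in such fat, had 1 read in the 5 HFD mice together and 6.18, 13.9, 18.1, 26 and 5.03 CPM in chow mice (adjusted p = 0.00251). With Letmd1 (−1.26, adjusted p = 0.0168), whose call was lost without HFD replicate 5 or chow replicate 4 (adjusted p up to 0.11), these were the 3 of 15 tested members that fell. Elovl3 was the member still called without the lymph node libraries (adjusted p = 0.0447). Cidea was not (−3.12, adjusted p = 0.147).

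Many genes of the extracellular matrix were higher in HFD mice. Of 35 tested matrix glycoproteins and proteoglycans 14 rose and 0 fell, all 35 lay above 0 and the median was 0.83 against −0.05 over all genes. Efemp1, fibulin-3 (chromosome 11, 28853204 to 28926743, + strand), had 189, 226, 141, 136 and 149.7 CPM in HFD mice and 52.5, 21.8, 31.9, 26 and 28.5 CPM in chow mice. Its lowest HFD mouse was far above the highest chow mouse, and it had the lowest adjusted p among the named genes (log2 fold change 2.17 ± 0.22, adjusted p = 1.46e-06). Thbs1, thrombospondin 1, an activator of latent TGF-beta (chromosome 2, 118111876 to 118127133, + strand), had 103, 79.2, 38, 50.1 and 149.7 CPM in HFD mice and 13.9, 15.8, 11.1, 4.59 and 11.7 CPM in chow mice (2.67, adjusted p = 9.41e-06). HFD mice spread over a wide range for Thbs1, yet none came near the chow mice. Prelp, a leucine-rich proteoglycan, had 760.4, 669, 597, 501 and 959 CPM in HFD mice and 267, 109, 180.5, 116 and 141 CPM in chow mice (1.88, adjusted p = 1.69e-05).

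These 3 matrix genes also passed without the lymph node libraries, with log2 fold changes of 1.73 for Efemp1, 2.45 for Thbs1 and 1.37 for Prelp (adjusted p = 0.000491, 0.00287 and 0.00282). The other 11 did not. Fn1, fibronectin, was among those, with 151, 171, 45.9, 79.2 and 134 CPM in HFD mice and 38.6, 45.5, 19.4, 7.64 and 11.7 CPM in chow mice. Its log2 fold change was 2.07 ± 0.43 with all mice (adjusted p = 0.0057) and 1.74 without those libraries (adjusted p = 0.172). Fbln2, fibulin 2, had 1.28 ± 0.24 with all mice (adjusted p = 0.00173) and 0.84 without them (adjusted p = 0.12). Over the whole list the median was 0.46 in that fit, with 29 of 35 above 0.

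Collagens were less clear than the glycoproteins. Of 13 tested, 2 rose: Col5a2, of fibrillar collagen V (0.92, adjusted p = 0.00682), and Col6a1, of the pericellular collagen VI (0.86, adjusted p = 0.0272), whose call was lost without HFD replicates 2 or 4 or chow replicates 2, 4 or 5 (adjusted p up to 0.0969). Col1a1, the main fibrillar collagen, overlapped between the diets at 236 to 506 CPM in HFD mice and 71.9 to 304 CPM in chow mice and missed the threshold (0.82, adjusted p = 0.118). All 13 lay above 0 with a median of 0.62, but without the lymph node libraries the median was 0.08 and none of the 13 was called. Of 23 matrix processing enzymes and inhibitors 7 rose at a median of 0.72, led by Pcolce2, an enhancer of procollagen cleavage, with 44, 38.2, 44.3, 59.8 and 119 CPM in HFD mice and 17, 1.98, 6.94, 6.12 and 3.35 CPM in chow mice (2.82, adjusted p = 0.000724). Adamts5, an aggrecanase, averaged 338 ± 115 CPM in HFD mice and 76.9 ± 56.4 CPM in chow mice (1.91, adjusted p = 0.00207; SD, n = 5 each). Mmp3, stromelysin 1, averaged 72.5 ± 11 CPM in HFD mice and 19.4 ± 13.5 CPM in chow mice (1.67, adjusted p = 0.00291; SD, n = 5 each). Chow replicate 1 was the highest chow mouse for all 3. None of the 7 was called without the lymph node libraries, where Pcolce2, Adamts5 and Mmp3 had log2 fold changes of 2.08, 1.22 and 0.93.

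Of 33 tested genes of the actin cytoskeleton, annexins and S100 proteins, 12 rose and 0 fell. In all 25 lay above 0 and 8 below, with a median of 0.65. S100a6, a calcium-binding protein of stromal cells (chromosome 3, 90612882 to 90624181, + strand), had 498, 373, 492, 474 and 629 CPM in HFD mice and 175, 137, 79.1, 116 and 131 CPM in chow mice. The lowest HFD mouse had more than 2 times the highest chow mouse (log2 fold change 1.78 ± 0.20, adjusted p = 5.64e-06). Anxa6, annexin A6, was tight within each diet, with 463, 424, 432, 335 and 493 CPM in HFD mice and 199, 180.1, 203, 183 and 198 CPM in chow mice (0.96, adjusted p = 0.000105). Both held without the lymph node libraries (adjusted p = 0.00200 and 0.0152). Ahnak, a giant scaffold protein of the cell cortex that is not on that list, had 485, 536, 784, 568 and 633 CPM in HFD mice and 230.1, 190, 180.5, 222 and 245 CPM in chow mice, with no overlap, and held too (1.31, adjusted p = 6.72e-05 with all mice, 1.29 and adjusted p = 0.00549 without those libraries). Anxa1 (1.82, adjusted p = 0.000911), Anxa2 (1.08, adjusted p = 0.00835) and S100a11 (1.08, adjusted p = 0.00113) were called with all mice and not without them (adjusted p = 0.0581, 0.298 and 0.0706).

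Myl4, the atrial and embryonic essential light chain of myosin, had 61.5, 39.6, 55.4, 45.3 and 68.6 CPM in HFD mice and 13.9, 9.89, 9.72, 7.64 and 5.03 CPM in chow mice, a log2 fold change of 2.32 ± 0.25 (adjusted p = 2.57e-06). It also held without the lymph node libraries (1.92, adjusted p = 0.00200). Of 18 tested muscle markers edgeR called 0, with 1 at an unadjusted p below 0.05, and DESeq2 and limma voom called 0. All 18 nevertheless lay above 0, at a median of 1.50 with all mice, and 14 of 18 lay above 0 at a median of 0.30 without the lymph node libraries. With all mice their median was 4.66 within the 11 libraries of higher code and −1.77 within the other 9. Muscle libraries were sedentary libraries with more than 1% of counts in muscle markers, namely chow replicate 1 and HFD replicates 3 and 4. With these and the lymph node libraries left out, chow replicate 3 was the only chow sedentary mouse. Myl4 had a log2 fold change of 2.12 in that fit. The part of muscle reads in the Myl4 result was not otherwise tested.

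Signals that act on the matrix and the adipocyte membrane rose as well. Of 16 tested genes of TGF-beta and BMP signalling 6 rose and 0 fell. Ccn1, a matricellular protein induced by TGF-beta and by stretch, had 60.1, 25.5, 38, 30.7 and 42.1 CPM in HFD mice and 6.18, 9.89, 5.55, 7.64 and 10.1 CPM in chow mice (2.13, adjusted p = 0.000291), and it was the member that held without the lymph node libraries (2.44, adjusted p = 0.011). Fstl1 (1.09, adjusted p = 0.00471) and Tgfb1i1 (1.34, adjusted p = 0.00503) did not. Caveolae, the membrane pits that are dense in adipocytes and endothelium, gave 4 of 8 tested genes higher at a median of 0.62. Cavin3, a coat protein of caveolae, had 169.9, 226, 193, 254 and 351 CPM in HFD mice and 102, 25.7, 58.3, 45.9 and 31.8 CPM in chow mice (1.95, adjusted p = 0.00324). Cav1, the main caveolin, averaged 2703 ± 608 CPM in HFD mice and 1132 ± 400.4 CPM in chow mice (SD, n = 5 each; 1.03 (adjusted p = 0.00599)). Cav2 (0.95, adjusted p = 0.0227) lost its call without HFD replicates 1 or 2 or chow replicates 2, 4 or 5 (adjusted p up to 0.0795), and Ehd2 (0.66, adjusted p = 0.023) without HFD replicate 1 or chow replicates 2, 4 or 5 (adjusted p up to 0.0821). None of the 4 was called without the lymph node libraries, where the 8 genes stayed above 0 at a median of 0.36. With the split by code as a further factor Cav1 and Cav2 passed (adjusted p = 0.042 and 0.0391) with the cut after 9 codes and not with a cut after 10 (0.159 and 0.181).

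Some markers of stromal and vascular cells were higher as well. Mesenchymal progenitor markers rose in 6 of 17 tested, with Cd34, of progenitors and endothelium, at 127, 100.4, 71.3, 56.6 and 93.6 CPM in HFD mice and 51, 31.7, 25, 16.8 and 15.1 CPM in chow mice (1.49, adjusted p = 0.00166). Summed reads of the whole progenitor list were 2171 to 4746 in HFD libraries, 1569 to 1955 in chow libraries with lymph node reads, and 1989 and 2631 in the other 2. Mural and smooth muscle markers rose in 3 of 11, namely Acta2 (1.64, adjusted p = 0.00393), Rgs5 (1.01, adjusted p = 0.00421) and Mcam (0.78, adjusted p = 0.0247; lost without HFD replicates 2 or 3 or chow replicates 2, 4 or 5 (adjusted p up to 0.0888)), and their summed reads were 569 to 1128 in HFD libraries, 255 to 352 in chow libraries with lymph node reads, and 600 and 385 in the others. Without the lymph node libraries Cd34 (adjusted p = 0.107), Acta2 (0.0964) and Rgs5 (0.152) missed the threshold, and 1 of the 6 progenitor calls held. With the split by code as a further factor Cd34 (0.0107) and Acta2 (0.0114) passed. Endothelial markers gave 2 higher of 19 tested, Esam (0.68, adjusted p = 0.0369) and Emcn (0.74, adjusted p = 0.0456), with 13 above 0, 6 below and a median of 0.19. Esam lost its call without HFD replicates 1, 2, 3 or 5 or chow replicates 2, 4 or 5 (adjusted p up to 0.125), and Emcn without HFD replicates 1, 2, 4 or 5 or chow replicates 1, 2, 4 or 5 (adjusted p up to 0.109). Summed endothelial reads were 10608 to 18815 in HFD libraries, 8837 to 13399 in chow libraries with lymph node reads, and 15255 and 17926 in the other 2. What part of the matrix and caveolae results goes with these cell markers was not tested.

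Acute-phase and complement genes rose in 8 of 18 tested, with 0 called lower. In all 12 lay above 0 and 6 below, with a median of 0.72. Hp, haptoglobin, which binds free haemoglobin (chromosome 8, 109575128 to 109579172, - strand), had 2756, 3241, 2225, 3354 and 6991 CPM in HFD mice and 958, 495, 648, 746 and 652 CPM in chow mice. HFD replicate 5 was more than 2 times the next HFD mouse, and all 5 lay above the chow mice (log2 fold change 2.20 ± 0.27, adjusted p = 1.21e-05). Serping1, the C1 inhibitor, had 327, 474, 250.2, 285 and 389.9 CPM in HFD mice and 156, 113, 77.8, 99.4 and 87.1 CPM in chow mice (1.50, adjusted p = 0.000111). Cfb, complement factor B, had 284, 354, 242, 252 and 368 CPM in HFD mice and 145, 150.4, 88.9, 119 and 122 CPM in chow mice (1.08, adjusted p = 0.000152). These 3 held without the lymph node libraries (adjusted p = 0.00435, 0.0333 and 0.00604). In that fit 1 of the 18 was called lower, and 1 was called lower in trained mice.

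Saa3, serum amyloid A3 of adipose tissue, had 26.4, 56.6, 61.8, 171 and 223 CPM in HFD mice and 0, 1.98, 1.39, 1.53 and 6.7 CPM in chow mice (5.29, adjusted p = 0.00016), and 6.64 at adjusted p = 0.0553 without the lymph node libraries. With the split by code as a factor in that fit it passed (5.33, adjusted p = 0.0267). The chow values are at or near the level of 3 counts, so the size of the fold is loosely set. Lrg1, a secreted leucine-rich glycoprotein, had 123, 113, 122, 168 and 278 CPM in HFD mice and 43.2, 17.8, 29.2, 52 and 60.3 CPM in chow mice (1.78, adjusted p = 0.000175) and held (adjusted p = 0.00269). Retnla, resistin-like alpha, had 793, 1054, 573, 1452 and 1128 CPM in HFD mice and 239, 77.2, 119, 105 and 83.8 CPM in chow mice. The diets lay far apart (2.81, adjusted p = 0.000129), but it missed the threshold without the lymph node libraries (2.25, adjusted p = 0.0776). Ifi27l2a, an interferon-induced gene, had 7866, 7740, 10715, 6336 and 8446 CPM in HFD mice and 3132, 3184, 1976, 2829.8 and 3909 CPM in chow mice (1.27, adjusted p = 0.000245) and held (adjusted p = 0.00238). It and Ifitm3 (0.70, adjusted p = 0.0214) were the 2 of 25 interferon-induced genes called, the second lost without HFD replicate 4 or chow replicates 4 or 5 (adjusted p up to 0.0679).

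Some chemokines were higher in HFD mice. Of 10 tested chemokines and cytokines 5 rose and 1 fell, with 6 above 0, 4 below and a median of 0.50. The fall was not called without the lymph node libraries. Ccl2, the main monocyte chemoattractant, had 27.8, 53.8, 22.2, 46.9 and 46.8 CPM in HFD mice and 3.09, 9.89, 11.1, 7.64 and 5.03 CPM in chow mice (2.21, adjusted p = 0.00108). Ccl7, a related ligand of CCR2, had 29.3, 35.4, 15.8, 32.3 and 49.9 CPM in HFD mice and 4.63, 5.94, 5.55, 1.53 and 5.03 CPM in chow mice (2.61, adjusted p = 0.000654). Without HFD replicates 1, 2 or 5 it was too low to be tested, and it was called in the other 7 fits that left out 1 mouse. Ccl9, a ligand of CCR1, had 39.6, 62.2, 34.8, 93.8 and 88.9 CPM in HFD mice and 15.4, 13.9, 9.72, 12.2 and 21.8 CPM in chow mice (1.95, adjusted p = 0.000496). These 3 held without the lymph node libraries (adjusted p = 0.028, 0.0288 and 0.0169), but with the split by code as a further factor Ccl9 missed the threshold (0.0529). Ccl6 (1.99, adjusted p = 0.00311) and Ccl11, eotaxin (0.97, adjusted p = 0.00957), did not.

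**Figure D2:**
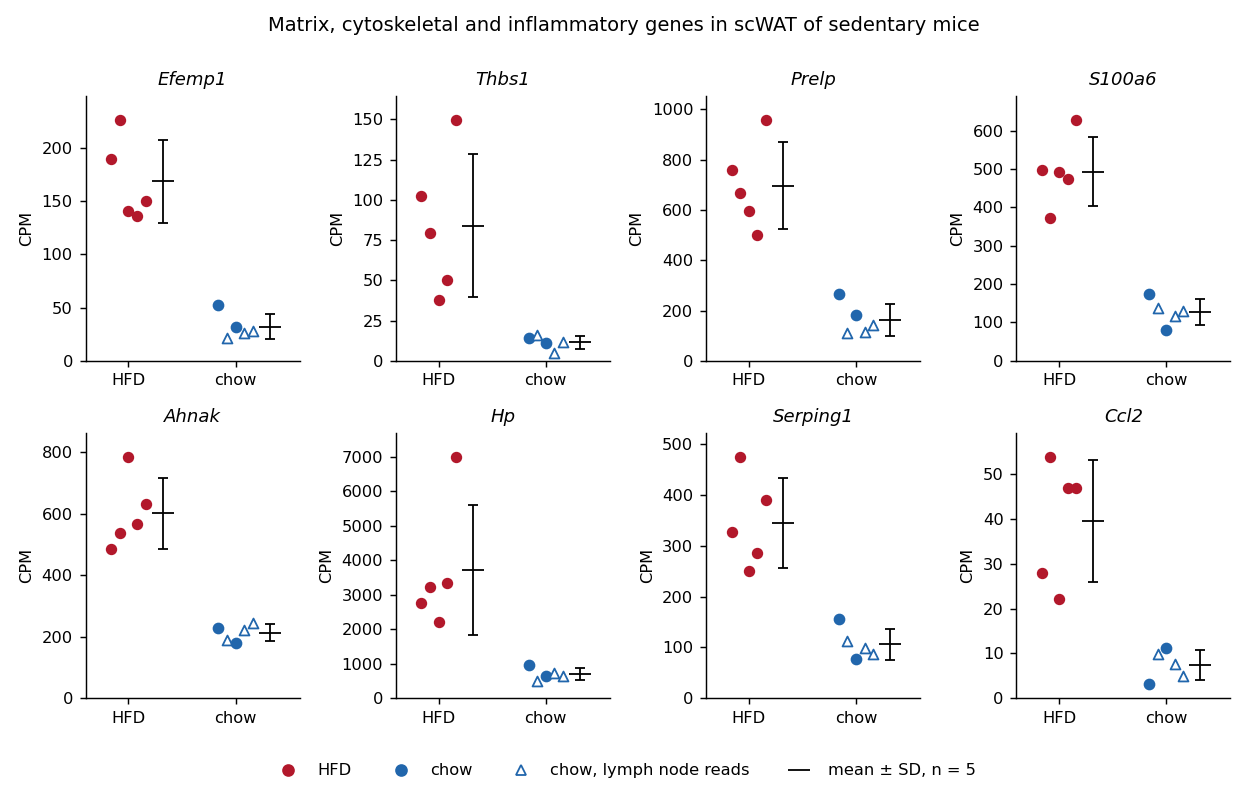
CPM of 8 genes of the matrix, cytoskeleton, acute phase and chemokines in scWAT of sedentary mice on HFD (left) and chow (right), 1 point per mouse, with mean and SD bars. Triangles mark the chow mice with lymph node reads. Every HFD mouse lay above every chow mouse for all 8, with Hp at 6991 CPM in HFD replicate 5 as the point farthest from its group.

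Macrophage markers rose in 4 of 19 tested, with 17 above 0 and a median of 0.88. Adgre1, which encodes F4/80, had 22, 25.5, 12.7, 22.6 and 39 CPM in HFD mice and 1.54, 3.96, 9.72, 9.17 and 0 CPM in chow mice (2.02, adjusted p = 0.0254), a low level at which the chow mice lay around the value of 3 counts. Fcgr3 (1.09, adjusted p = 0.042), Pf4 (0.89, adjusted p = 0.0442) and Cd14 (0.93, adjusted p = 0.0477) were the other 3. Adgre1 lost its call without HFD replicates 2 or 5 or chow replicates 2 or 5 (adjusted p up to 0.0801), Fcgr3 without HFD replicates 2, 4 or 5 or chow replicates 1, 2, 4 or 5 (adjusted p up to 0.106), Pf4 without HFD replicates 1, 2, 4 or 5 or chow replicates 2, 4 or 5 (adjusted p up to 0.119) and Cd14 without HFD replicates 1, 2, 3, 4 or 5 or chow replicates 2, 4 or 5 (adjusted p up to 0.115). None of the 4 was called without the lymph node libraries, while the median of the 19 stayed at 0.86. Of 12 lipid-associated macrophage genes edgeR called 0, with 4 at an unadjusted p below 0.05. DESeq2 called 1 and limma voom 0, and the median was 0.20. That list shares Lpl and Cd36 with the adipocyte markers. Its summed reads were 7619 to 17154 in HFD libraries and 5276 to 13048 in chow libraries. These results therefore do not tell macrophages from adipocytes. Summed macrophage marker reads were 633 to 1501 in HFD libraries, 545 to 961 in chow libraries with lymph node reads, and 451 and 456 in the other 2.

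Stress hormone and one-carbon genes added single changes. Mt2, metallothionein 2, had 166, 86.3, 116, 95.4 and 101 CPM in HFD mice and 27.8, 23.7, 40.3, 29 and 28.5 CPM in chow mice (1.70, adjusted p = 0.000272), with no overlap, and held without the lymph node libraries (1.44, adjusted p = 0.0306). Tsc22d3, the glucocorticoid-induced leucine zipper, had 438, 157, 206, 157 and 181 CPM in HFD mice and 72.6, 67.3, 117, 65.7 and 72 CPM in chow mice (1.32, adjusted p = 0.00774) and did not hold (adjusted p = 0.288). Hsd11b1, which regenerates active glucocorticoid in fat, fell by 1.03 on the log2 scale (112 to 182 CPM in HFD mice and 162 to 412 CPM in chow mice; adjusted p = 0.00588) and by more without those libraries (−1.51, adjusted p = 0.000262). Phgdh, the first enzyme of serine synthesis, rose to 177, 266, 196, 165 and 251 CPM in HFD mice, against 136, 81.1, 91.6, 96.3 and 72 CPM in chow mice (0.94, adjusted p = 0.0057), and missed the threshold without them (adjusted p = 0.239). Prps1, which makes the ribose donor of nucleotide synthesis, had 157, 218, 150.4, 191 and 329 CPM in HFD mice and 74.1, 71.2, 43, 41.3 and 68.7 CPM in chow mice (1.63, adjusted p = 1.69e-05) and held (adjusted p = 0.00348). Gask1b, of the Golgi, also rose and held, with log2 fold changes of 1.52 ± 0.23 with all mice and 1.16 without the lymph node libraries (adjusted p = 0.000199 and 0.0381).

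Ephx2, the soluble epoxide hydrolase of lipid mediators, had 293, 299.9, 306, 133 and 271 CPM in HFD mice and 375, 404, 457, 373 and 575 CPM in chow mice (−0.95, adjusted p = 0.00503), with HFD replicate 4 well below the rest. Pck1, which makes the glycerol backbone of triglyceride in fat, had 804, 709, 819, 333 and 310.4 CPM in HFD mice and 903, 1223, 1248, 878 and 1670.4 CPM in chow mice (−1.18, adjusted p = 0.00555). Ephx2 held without the lymph node libraries (adjusted p = 0.0300) and Pck1 did not (adjusted p = 0.112). Insulin signalling (18 genes), the circadian clock (10 genes) and chaperones of the endoplasmic reticulum (23 genes) gave 0 calls with edgeR, DESeq2 or limma voom, at medians of −0.18, −0.12 and 0.09; at an unadjusted p below 0.05 there were 2, 0 and 1. Adipoq, adiponectin, overlapped between the diets at 4074 to 7524 CPM in HFD mice and 2977 to 5198 CPM in chow mice (0.32, adjusted p = 0.42), and had −0.068 without the lymph node libraries (adjusted p = 0.942).

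The full set of 449 genes divided by direction when the lymph node libraries were left out. That fit tested 7759 genes and called 139 (1.79%), 45 higher (0.58%) and 94 lower (1.21%), with 5 HFD and 2 chow mice. Of the 449 genes, 421 could be tested, 419 had the same direction and 104 kept the call (23.2%). Of the 251 higher genes, all 251 kept their direction and 34 kept the call (13.5%), with a median ratio of the new to the old log2 fold change of 0.73. Of the 198 lower genes, 170 could be tested, 168 kept their direction and 70 kept the call (35.4%), with a median ratio of 1.06. A lost call thus came with a smaller fold on the upward side and with little change in fold on the downward side. Chow replicate 1, 1 of the 2 chow mice left, was the highest chow mouse for Efemp1, Prelp, Retnla, Sfrp5 and Adamts5, but not for Thbs1 or Lrg1. How far the smaller upward folds depend on that mouse was not tested on its own. Fewer mice enter this fit, so loss of a call is not by itself loss of a change. Its 5 HFD and 2 chow mice also served to pick the 449 genes, so a kept direction or call is no independent support.

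Both remaining chow libraries are among the 9 scWAT libraries of lowest code, whereas HFD mice fall on either side. The codes are consecutive and neither they nor the labels set a break, so the cut after the ninth rests on the step in liver reads and was chosen with these data known. With that split as a factor the test called 170 of 7759 genes (2.19%), of which 71 had higher levels (0.915%) and 99 lower ones (1.28%). Of the 170, 124 are among the 449. Of the 449, 87 passed with and without the split, 37 passed only with it and 17 only without it. Efemp1, Prelp, Cfb, Lrg1, Ifi27l2a, Tkt, Ptges, Parm1, Mpc1, Insig1, Acat2 and mt-Atp6 were among the genes named here that passed in both. Pcx (adjusted p = 0.0648), Pdha1 (0.0658), Fdps (0.0564), Cpt2 (0.0884), Elovl3 (0.0753), Ccl9 (0.0529) and Ephx2 (0.059) passed only without the split. A cut after the tenth code moves 1 HFD trained library across and gave 110 calls, 88 of them among the 449, so the count depends on where the cut is placed. Coasy (adjusted p = 0.0550), Mcrip2 (0.0517), Uqcr10 (0.0706), Hadha (0.1001) and Fbln2 (0.0789), like Cav1 and Cav2, passed with the cut after the ninth code and missed the threshold with the cut after the tenth. Within the 9 libraries alone, with 2 HFD and 3 chow sedentary mice, edgeR called 0 of 7560 genes (694 at an unadjusted p below 0.05), and within the other 11, with 3 HFD and 2 chow sedentary mice, it called 267.

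**Figure D3:**
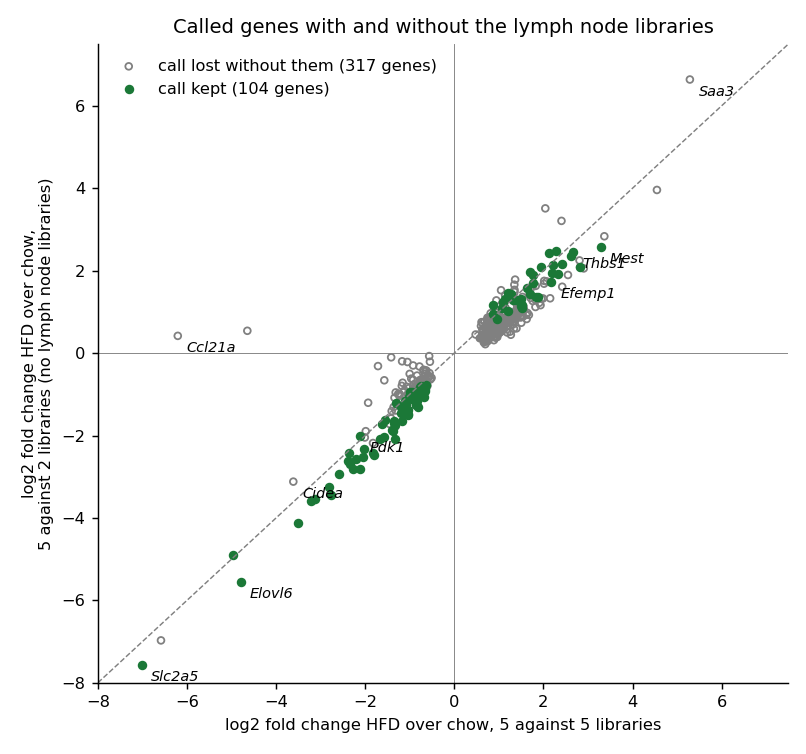
Log2 fold change of HFD over chow for the 421 called genes that could be tested both ways, with all 5 chow mice (x axis) and with the 2 chow mice free of lymph node reads (y axis). Filled points are the 104 genes that kept the call; the dashed line marks equal values. Higher genes lie mostly below the line, lower genes near it, and Ccl21a leaves the diagonal, with −6.21 on the x axis and 0.42 on the y axis. Slc2a5 had 0 counts in HFD mice, so its place shows the fit's value and is no measured fold.

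Of the 6 largest falls whose call was lost, 5 were in genes of lymphocytes or lymph node stroma, 3 of which follow. Ccl21a had 4.4, 19.8, 0, 4.85 and 6.24 CPM in HFD mice and 4.63, 1451, 4.17, 667 and 429 CPM in chow mice. Cd79a, of the B cell receptor, had 0, 4.24, 6.33, 0 and 1.56 CPM in HFD mice and 1.54, 229.6, 0, 179 and 111 CPM in chow mice. Iglc2, an immunoglobulin light chain, had 2.93, 1.41, 3.17, 1.62 and 1.56 CPM in HFD mice and 0, 295, 1.39, 174 and 67 CPM in chow mice. In each, chow replicates 2, 4 and 5 stood alone and chow replicates 1 and 3 were within or near the range of HFD mice. All 3 were called lower with all mice (adjusted p = 0.0359, 0.0404 and 0.0372). Each kept the call in 2 of the 10 fits that left out 1 mouse, those without chow replicate 1 or 3, and lost it in the others (adjusted p up to 0.0994). Without the lymph node libraries, Ccl21a was at 0.42 (adjusted p = 0.927) and the other 2 were too low to be tested. Mup9, a major urinary protein gene, followed another set of mice, with 1 read in HFD replicate 1 alone among HFD mice, against 54.1, 91, 51.4, 24.5 and 0 CPM in chow mice (adjusted p = 0.0309). Its call was lost without HFD replicates 1, 2, 3, 4 or 5 or chow replicates 2 or 4 (adjusted p up to 0.107).

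Among upward genes, 1700047G03Rik (86.4, 158, 53.8, 104 and 175 CPM in HFD mice, 17, 1.98, 9.72, 9.17 and 8.38 CPM in chow mice) and Sfrp5, a secreted Wnt inhibitor that marks fat expansion (42.5, 67.9, 57, 87.3 and 78 CPM in HFD mice, 24.7, 1.98, 2.78, 4.59 and 3.35 CPM in chow mice), had log2 fold changes of 3.37 ± 0.53 and 2.91 ± 0.51 with all mice and of 2.83 and 2.05 without the lymph node libraries. Neither passed there (adjusted p = 0.151 and 0.153). Ubd, an inflammation-induced ubiquitin-like protein, overlapped between the diets at 41.2 to 535 CPM in HFD mice and 17 to 85.1 CPM in chow mice, with HFD replicates 4 and 5 far above the others (2.41, adjusted p = 0.0289; adjusted p = 0.189 without the lymph node libraries), and its call was lost without HFD replicates 4 or 5 or chow replicates 3, 4 or 5 (adjusted p up to 0.0811).

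Some genes were called only without the lymph node libraries, in the fit with 2 chow mice. Among its 7759 tested genes, that fit called 35 that were not called with all mice, 11 higher and 24 lower. Capg, an actin-capping protein of macrophages, had 30.8, 49.5, 41.2, 46.9 and 76.4 CPM in HFD mice and 6.18, 51.5, 6.94, 39.7 and 43.6 CPM in chow mice. Chow replicates 2, 4 and 5 lay near the HFD mice and chow replicates 1 and 3 were lower. Its log2 fold change was 0.59 ± 0.46 with all mice (adjusted p = 0.504) and 2.58 without the lymph node libraries (adjusted p = 0.00103). Cd44, the hyaluronan receptor, gave a like pattern, with 41, 31.1, 25.3, 25.9 and 67.1 CPM in HFD mice and 6.18, 51.5, 5.55, 33.6 and 26.8 CPM in chow mice (adjusted p = 0.0112 without those libraries), as did Zyx, zyxin of focal adhesions (1.99, adjusted p = 0.00668), and Actg1, gamma-actin (1.09, adjusted p = 0.00491). Rbp4, the retinol carrier, was lower there (−1.44, adjusted p = 0.00377), as was Gm43738 (−1.59, adjusted p = 0.00491).

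Some gene groups changed sign between the fits. All but 1 of 75 cytosolic ribosomal protein genes lay below 0 with all mice, at a median of −0.38, and all 75 lay above 0 without the lymph node libraries, at 0.38. With the split by code as a factor the median was 0.06. In these 3 fits edgeR called 0 of the 75, with 10, 8 and 0 at an unadjusted p below 0.05, and DESeq2 and limma voom called 0 with all mice. MHC class II genes had a median of −0.66 over 12 genes with all mice and 0.89 over the 8 still testable. The plot of list medians sets these beside the groups whose median stayed near its place, such as the mitochondrially encoded, respiratory chain, pyruvate and macrophage genes.

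**Figure D4:**
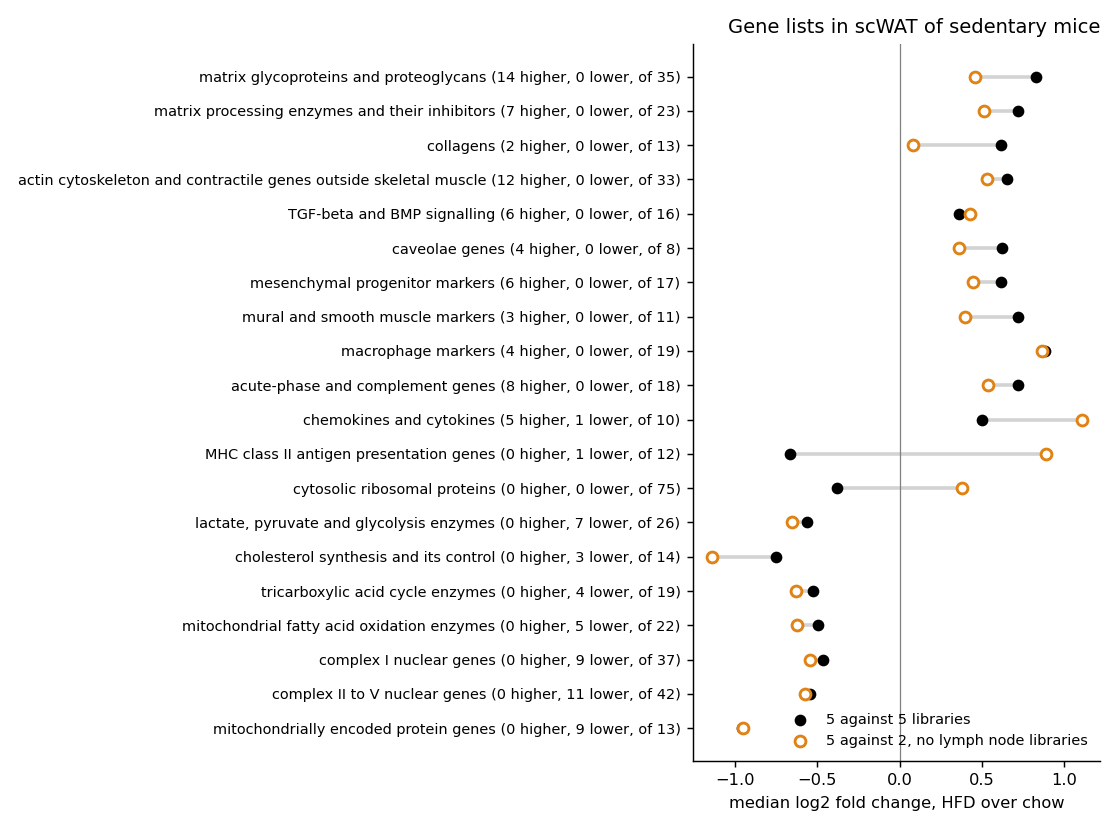
Median log2 fold change of HFD over chow for 20 gene lists in scWAT of sedentary mice, with all 5 chow mice (black) and with the 2 chow mice free of lymph node reads (open orange). Labels give the called genes of those tested with all mice. Medians of ribosomal protein and MHC class II genes lie on opposite sides of 0 in the 2 fits, while collagens have 0.08 without and 0.62 with the lymph node libraries.

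Mice that ran on a wheel gave a second comparison of the diets, with no library shared. In trained mice 365 of 7069 genes were called (5.16%), 223 higher (3.15%) and 142 lower (2.01%). Of the 449 genes 191 were among them in the same direction, 121 higher and 70 lower; 423 of the 449 had the same direction. The interaction of diet with training called 0 genes with edgeR, against 438 at an unadjusted p below 0.05, 21 with DESeq2 and 0 with limma voom, so differences between trained and sedentary mice named next are values side by side. Log2 fold changes in trained mice were 1.88 for Efemp1 (adjusted p = 1.58e-05), 1.71 for Prelp (7.53e-05), −2.13 for Tkt (0.000187), −1.43 for Pdk1 (0.00106) and −2.55 for Sorl1 (1.77e-05). Thbs1 had 0.50 (adjusted p = 0.491), Ccl2 −0.16 (0.91), Ccl7 0.36 (0.763), Mt2 0.40 (0.449) and Nat8l −0.46 (0.469) in trained mice, none of which passed. Chow trained mice hold lymph node libraries too, 3 of 5, so both comparisons carry that imbalance. Of the 191 genes, 63 also kept the sedentary call without such libraries, 23 higher and 40 lower. Without all such libraries 149 genes were called in trained mice. The share of all 7069 genes with the same direction in both comparisons was not computed.

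Visceral fat of the same sedentary animals shared part of the response. There 564 of 6990 genes were called (8.07%), 274 higher (3.92%) and 290 lower (4.15%). Of the 449 subcutaneous genes 404 were tested there, of which 150 were called in the same direction. A joint fit of both depots, with the animal as a block, called a depot difference in the diet effect for 89 of 7131 genes (1.25%), 63 of them more positive in scWAT (0.883%) and 26 less (0.365%). Of these, 45 were called in scWAT, 40 higher and 5 lower. Efemp1 had a log2 fold change of 0.13 ± 0.27 in vWAT (adjusted p = 0.86) and a difference of 2.07 ± 0.26 (adjusted p = 0.000309). Myl4 had 0.12 ± 0.35 in vWAT and a difference of 2.20 ± 0.37 (adjusted p = 0.00384), and Ahnak −0.05 ± 0.15 and 1.32 ± 0.22 (0.00386). Cavin3 differed by 1.83 ± 0.28 (adjusted p = 0.00222) and Insig1 by −1.40 ± 0.25 (0.00643), the second with −0.35 ± 0.32 in vWAT.

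Without the animals whose scWAT libraries held lymph node reads, 11 genes had a depot difference, 6 of them among the 89. Efemp1 (adjusted p = 0.0291), Insig1 (0.0291), Elovl6, a fatty acid elongase (0.0291), and Myl4, just inside the threshold (0.0498), passed in that fit. Ahnak (0.0633) and Cavin3 (0.104) did not. Genes called in vWAT as well, whose depot difference missed the threshold, included Hp (log2 fold change 1.52 ± 0.21 in vWAT, adjusted p = 8.28e-05), Lrg1 (1.55 ± 0.23, 6.95e-05), Cfb (1.14 ± 0.14, 2.31e-06), Ccl2 (2.15 ± 0.49, 0.0105), Tkt (−1.88 ± 0.31, 0.000985) and mt-Atp6 (−1.09 ± 0.12, 1.33e-07); their depot differences had adjusted p of 0.19, 0.851, 0.955, 0.982, 0.619 and 0.927.

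**Figure D5:**
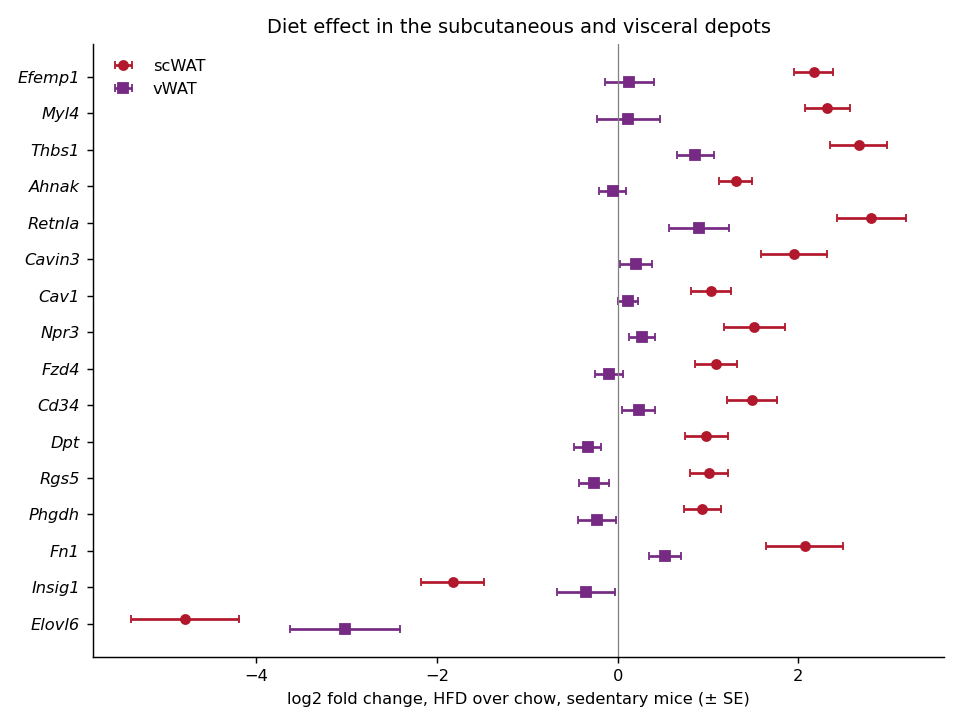
Log2 fold change of HFD over chow with its standard error in scWAT (red circles) and vWAT (purple squares) of sedentary mice, for 16 of the 21 named genes with a depot difference at an adjusted p below 0.05. Efemp1, Myl4 and Ahnak lie above 1 in scWAT and near 0 in vWAT, while Insig1 and Elovl6 are lower in scWAT than in vWAT.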

How the data were processed

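Expression was measured by 3′ digital gene expression sequencing of whole tissue, per the labels' protocols. Salmon 0.14.2 and mm10 are named in the submitters' processing notes. Per the file headers, the authors deposited rounded estimated counts and, for each library, log2 values. The counts were analysed and the log2 values, found to be log2 of CPM plus 1, served only to check the unit. Use of strand or molecular identifiers is not stated, so gene families (H2, Saa, Mup, immunoglobulin) and overlapping genes are uncertain. Rows with no symbol, 259 of 54352, held 0.0413% of scWAT counts. Coordinates are from GENCODE on GRCm38 (mm10).

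The 20 scWAT libraries were fitted together in edgeR 4.0.16 under R 4.3.3 (TMM, filterByExpr, robust quasi-likelihood), with DESeq2 1.42.0 and limma 3.58.1 as alternatives. A gene was called at a Benjamini-Hochberg adjusted p below 0.05 over all genes tested. Standard errors follow from the fold change and its F statistic. Scripts were tested on simulated data. CPM is on total counts, where the 3 counts that a 0 allows are 4.17 to 5.94 CPM for counting error only. TMM moved the median log2 fold change by −0.19. Lymph node libraries are those with at least 100 reads of Ccl21a, Ccl19 and Cxcl13 together, 3 chow sedentary and 3 chow trained. The depot fit blocked on the animal. Cages and litters are not stated, so p values measure the spread between these mice. No 2 libraries of a group were identical.

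Members and gene lists were chosen with earlier results of these data known. The rule named the 15 genes in each direction with the lowest adjusted p (log2 change of 1 or more, mean log2 CPM of 4 or more, outside lipogenic, expansion and other-cell lists). It added leading members of each list, leading genes that lost or gained the call without lymph node libraries, leading depot differences and a watch list. Pdha1, Pdhb, Pcx, Eno1, Gpd2, Fn1, Fbln2, Col1a1, Anxa2, S100a11, Ccl6 and Ccl11 were added after their values were seen.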

Additional observations from a re-analysis of the deposited data

Results flagged for a closer look

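Among 326 groups of 5 mice checked, for 163 genes in each diet, 24 held a mouse whose gap to its nearest neighbour was over 0.710 of the group's range, Dixon's 95% limit for 5 values; chance alone gives about 1 in 20 groups. HFD replicate 1 was the highest mouse of its diet, given against the nearest mouse, for Tsc22d3 with 438 CPM against 206 CPM and Sgk1 with 144 CPM against 82.5 CPM. HFD replicate 2 was the highest mouse of its diet, given against the nearest mouse, for Pdk1 with 25.5 CPM against 10.3 CPM and Ehhadh with 76.4 CPM against 36.4 CPM. HFD replicate 4 was the lowest mouse of its diet, given against the nearest mouse, for Ephx2 with 133 CPM against 271 CPM. HFD replicate 5 was the highest mouse of its diet, given against the nearest mouse, for Hp with 6991 CPM against 3354 CPM, Pcolce2 with 119 CPM against 59.8 CPM and Fdps with 109 CPM against 57.1 CPM. Chow replicate 1 was the highest mouse of its diet, given against the nearest mouse, for Retnla with 239 CPM against 119 CPM, Sfrp5 with 24.7 CPM against 4.59 CPM, Adamts5 with 175 CPM against 68 CPM, Tgfb1i1 with 26.3 CPM against 13.9 CPM and Fbln2 with 63.3 CPM against 34.7 CPM. Chow replicate 1 was the lowest mouse of its diet, given against the nearest mouse, for Gucd1 with 18.5 CPM against 26.8 CPM. Chow replicate 2 was the highest mouse of its diet, given against the nearest mouse, for Ubd with 85.1 CPM against 36.7 CPM. Chow replicate 3 was the highest mouse of its diet, given against the nearest mouse, for mt-Atp6 with 36646 CPM against 26194 CPM, Me1 with 1511 CPM against 628 CPM, Hspe1 with 393 CPM against 299.6 CPM and Tsc22d3 with 117 CPM against 72.6 CPM. Chow replicate 4 was the highest mouse of its diet, given against the nearest mouse, for Idh3b with 479 CPM against 323 CPM, Ndufa6 with 763 CPM against 665 CPM, Letmd1 with 94.8 CPM against 43 CPM and Sucla2 with 266 CPM against 203 CPM. Chow replicate 4 was the lowest mouse of its diet, given against the nearest mouse, for Hcar1 with 41.3 CPM against 58.7 CPM. 

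The diet effect of sedentary mice differed between scWAT and vWAT, in edgeR's joint fit with the animal as a block, for 21 of the genes named. As log2 fold change in scWAT minus that in vWAT, the values above 0 were Efemp1 2.07, Myl4 2.20, Thbs1 1.75, Ahnak 1.32, Retnla 1.97, Cavin3 1.83, Cav1 0.99, Npr3 1.35, Fzd4 1.25, Cd34 1.29, Dpt 1.32, Rgs5 1.25, Phgdh 1.17, Tuba1b 0.81, Lep 1.04, Mest 1.20 and Fn1 1.56. The values below 0 were Rassf2 −2.65, Insig1 −1.40, H2-Q7 −2.09 and Elovl6 −1.68. Adjusted p values of these differences lay between 0.000309 and 0.0485. Without the animals with lymph node reads, Efemp1, Myl4, Insig1 and Elovl6 kept an adjusted p below 0.05 and the other 17 did not.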

How the results depend on the processing

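The count of genes called in sedentary mice (449, with 251 higher and 198 lower) stayed within 1.5 times with DESeq2, limma voom, DESeq2 size factors, the split by code as a factor, and without mitochondrially encoded genes. Total counts in place of TMM called 544 higher and 109 lower, no filter on low counts 724 (371 lower), and the 10 sedentary libraries alone 92 lower. Without the lymph node libraries there were 139 (45 and 94), with the split by code as well 170 (71 and 99), with the cut after the tenth code 110 (50 and 60), and without muscle libraries too 151 (43 and 108). All splits by code were chosen after seeing the data. Within the 9 libraries with the lowest codes there were 0, 0 and 0, and within the other 11 there were 267, 152 and 115; these fits hold fewer mice. Leaving out 1 mouse gave 243 to 644 called, 142 to 329 higher and 94 to 315 lower, with 243 without chow replicate 4 and 291 without HFD replicate 5. Higher calls were fewest without chow replicate 4 or 5 (142 and 165), and lower calls moved most without chow replicates 1 or 4 (315 and 101) or HFD replicates 1, 2 or 5 (115, 111 and 94). Leaving out trained replicates was added after seeing the data. A replicate block called 646, 329 of them lower, but the numbers do not pair the mice: residuals of same-numbered libraries correlated at −0.186 to 0.237. In trained mice 365 became 627 with DESeq2, 239 with limma voom, 822 on total counts, 747 with no filter, 149 without the lymph node libraries, 109 with B cell and muscle scores as covariates and 552 with the replicate block, and 200 to 610 without 1 mouse. The interaction, 0 otherwise, gave 21 with DESeq2, 58 with no filter, 4 with covariates and 0 to 1 without 1 mouse. Depot differences (89) became 382 with no filter, 11 without the lymph node libraries, 21 with no animal block and 33 to 214 without 1 mouse. They were lowest without HFD replicate 5 and highest without chow replicate 1. Among 163 named genes, log2 fold changes changed sign 11 times: Ccl21a at 0.42 without the lymph node libraries, 0.87 with the split by code as well (0.90 with the cut after the tenth), 0.87 without muscle libraries too and 0.036 with covariates; with covariates also Cd79a (0.089), Cd79b (0.14), Mzb1 (0.59) and Ccl19 (0.52); H2-Q7 at 0.22 without lymph node and muscle libraries; and Adipoq at −0.068 without the lymph node libraries. Other gene values kept their direction, 3143 on the same side of the threshold, 954 losing and 57 gaining the call. The cause was not tested.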
